A study of Mus musculus with 12 samples.

Results

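The 10 genes of the secreted Wnt inhibitors, Sfrp1, Sfrp2, Sfrp4, Sfrp5, Frzb, Wif1, Dkk1, Dkk2, Dkk3 and Dkk4, were followed through a reduced representation bisulfite data set of mouse leukaemia cells. They were taken by name, and genes of this family are known to be silenced by DNA methylation in leukaemia. Each gene was read from 5 kb outside one annotated end through its body to 5 kb outside the other, on mm10. In these stretches, 391 CpGs were covered by 10 calls or more in every one of the 12 libraries, of 1052856 such CpGs in all. All 10 genes were measured, among 17323 protein-coding genes, with 108 CpGs at Sfrp1, 82 at Sfrp2, 42 at Frzb, 39 at Wif1, 34 at Dkk3, 28 at Sfrp4, 27 at Dkk1, 13 at Sfrp5, and 9 each at Dkk2 and Dkk4.

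The cells were CMM cells, a transplantable mouse model of inv(16) acute myeloid leukaemia marked with GFP, injected by vein into C57BL/6 mice and recovered from the spleen. In all groups, 3 injections on alternate days began once about 1% of blood cells were GFP-positive, and spleens were taken 1 day after the last. The CD11b-positive group held GFP-positive, CD11b-positive cells of mice given CpG-STAT3dODN by vein, and the CD11b-negative group the GFP-positive, CD11b-negative cells of mice given the same agent. The PBS group held GFP-positive cells of mice given PBS, which were not divided by CD11b, so treatment and sorting cannot be told apart against this group. Each group had 4 libraries, and all host mice were engrafted with the same leukaemia. CpG-STAT3dODN joins a CpG oligonucleotide, a ligand of the receptor TLR9, to a decoy for the transcription factor STAT3, and CD11b is a surface integrin of maturing myeloid cells. The labels do not say whether the libraries of a group came from separate mice, so the p-values measure the spread between these libraries. In pooled cells, a change in every cell and a change in the mixture of cell types cannot be told apart.

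Wnt proteins signal through Frizzled receptors and the co-receptors Lrp5 and Lrp6 to stabilise beta-catenin, which acts with TCF factors on transcription. The secreted Frizzled-related proteins (Sfrp1, Sfrp2, Sfrp4, Sfrp5 and Frzb) carry a Frizzled-like domain that binds Wnt outside the cell, and Wif1 binds Wnt through a domain of its own. Dickkopf proteins instead bind the co-receptors Lrp5 and Lrp6, with Kremen proteins as partners. Dense methylation of CpG-rich gene starts is generally found at silent genes. Methylation within gene bodies has no such simple relation to expression, and no expression was measured here.

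A methylation level is the share of calls at a stretch that read methylated, and values after ± are SDs over the 4 libraries of a group. Libraries held 112671408 to 157223205 calls, with a median of 84 calls per shared CpG and library, and a gene of this family rested on 661 to 14846 calls in any 1 library. Mean methylation over the shared CpGs was 34.7 ± 0.810% in the CD11b-positive, 33.1 ± 1.59% in the CD11b-negative and 31.4 ± 0.292% in the PBS libraries. The 2 treated libraries numbered 2 stood apart from the others of their groups, with 35.9% in CD11b-positive 2 and 35.5% in CD11b-negative 2. Calls over 8 Y-linked genes moved with the groups: per 1000000 autosomal calls they amounted to 25.0, 41.3, 23.8 and 23.8 in the CD11b-positive libraries, 12.9, 40.2, 11.1 and 8.64 in the CD11b-negative ones and 5.52 to 18.6 in the PBS ones. The part of these shares in the results below was not tested beyond the fit with the Y share given there. Starts of erythroid marker genes moved as well, with 3 of 4 measured higher in CD11b-positive than in PBS (Rhd 59.9% and 9.60%, Ermap 56.1% and 8.06%, Epor 30.9% and 2.92%) and Klf1 at 1.72% and 0.674%. Of the myeloid progenitor markers, 1 of 5 measured starts was higher (Spi1, 89.5% and 78.6%), while the starts of Kit (0.833% and 0.492%) and Cd34 (0.971% and 2.13%) were nearly free of methylation. The median level of these 5 starts was 43.0% in CD11b-positive and 44.4% in PBS. The single measured start of the B cell list (Blk, 52.8% and 30.9%) was higher, as was that of the endothelial list (Pecam1, 30.2% and 7.39%), and no start of the T cell list was measured. Over gene regions, 3 of 5 T cell genes (Lck, 44.1% and 28.1%, Cd8a, 68.8% and 45.3%, and Cd3e, 93.8% and 82.4%), 2 of 8 myeloid progenitor genes (Elane, 53.4% and 33.3%, and Csf1r, 78.1% and 56.6%), and 1 each of 4 B cell, 4 erythroid and 3 endothelial genes were higher and none was lower, when 18.1% of all regions were higher. The part of these cell types in the family's results was not tested.

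The gene starts of the family differed widely in the PBS cells. A gene start is the stretch within 1000 bp of the annotated start, which the reference gives for 6 members. For Sfrp1, Sfrp4 and Dkk3, whose strand was not used here, it is the annotated end with more measured CpGs. Dkk4 had no measured CpG at either end. Sfrp1 had the highest level, 61.6 ± 7.65%, and 5.26% of 13254 measured gene starts lay above it, when 82.3% of all starts were under 20%. Dkk2 (44.1 ± 9.10%) and Dkk3 (43.1 ± 5.43%) came next, and neither Sfrp1 and Dkk2 nor Dkk2 and Dkk3 were separated in all libraries. Sfrp2 followed at 19.1 ± 2.77%, apart from both neighbours, and then Frzb at 12.4 ± 2.07%, Dkk1 at 9.34 ± 1.04%, Sfrp5 at 8.16 ± 1.64% and Sfrp4 at 8.10 ± 1.89%, each of which overlapped the next. Wif1 was lowest, at 1.11 ± 0.101%, with no overlap with Sfrp4.

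The starts of Sfrp2 and Wif1 are shown in sequence, because the first was partly methylated and the second nearly free of methylation. Each RefSeq window (GRCm38.p6) runs from 250 bases before the start to 50 bases after it, 5′ to 3′, with the CpGs measured in all 12 libraries in capitals. The gene start values of Sfrp2 are centred on the annotated lower end of the gene (chr3:83765750), which lies before the first base of its window.
Sfrp2, chr3:83766071-83766370, plus strand: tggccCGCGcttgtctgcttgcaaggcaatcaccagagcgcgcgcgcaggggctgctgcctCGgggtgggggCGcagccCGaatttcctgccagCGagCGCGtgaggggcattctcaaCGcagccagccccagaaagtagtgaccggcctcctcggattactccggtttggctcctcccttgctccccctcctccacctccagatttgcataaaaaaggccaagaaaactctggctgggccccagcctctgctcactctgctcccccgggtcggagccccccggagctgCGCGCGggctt
Wif1, chr10:121033754-121034053, plus strand: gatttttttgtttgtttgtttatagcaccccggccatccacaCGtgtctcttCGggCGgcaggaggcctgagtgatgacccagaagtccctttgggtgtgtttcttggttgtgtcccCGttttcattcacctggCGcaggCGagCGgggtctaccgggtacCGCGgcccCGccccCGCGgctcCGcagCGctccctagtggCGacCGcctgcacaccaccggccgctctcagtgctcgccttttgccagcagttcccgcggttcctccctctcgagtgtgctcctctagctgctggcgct
The Sfrp2 window holds 22 CpGs, of which 12 were measured, and their mean level was 7.60% in the CD11b-positive, 15.0% in the CD11b-negative and 19.7% in the PBS group, with 10 of the 12 lower in CD11b-positive than in PBS. The Wif1 window holds 25 CpGs, of which 16 were measured, at 0.857%, 0.654% and 0.607% in the same groups, and no single CpG was above 3.72% in any group mean. The motif CCGG, the usual cut site of this method and its own reverse complement, occurs in 5 of the 6 family windows available and in 52.8% of 32851 RefSeq windows of the same length. The Dkk2 window has no CCGG and no measured CpG, so the Dkk2 values below come from 9 CpGs within the gene, up to 426 bp from its start.

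Against PBS, the CD11b-positive cells had less methylation at the starts of Sfrp1 and Dkk2 and more methylation at stretches away from the starts, most of all beside Dkk4 and Sfrp5. A difference was called when its adjusted p was under 0.05 (quasi-binomial test with limma-type moderated dispersion, Benjamini-Hochberg over all features) and it was at least 10 percentage points. By whole gene regions, 4 of the 10 genes were called, Dkk4 and Sfrp5 higher and Dkk2 and Sfrp1 lower, against 21.6% of all gene regions (18.1% higher and 3.52% lower). By gene starts, 2 of 9 were called, both lower, against 9.28% of all gene starts (4.61% higher and 4.67% lower). The libraries of the 2 groups did not overlap at 8 of 10 regions, against 48.6% of all regions, and at 6 of 9 starts, 5 of them lower in CD11b-positive, against 28.6% of all starts (12.1% lower). The median difference over the 9 starts was -5.84 points, against 0.0624 points over all starts, and over the 10 regions it was 2.09 points, against 2.88 points over all regions.

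**Figure D1:**
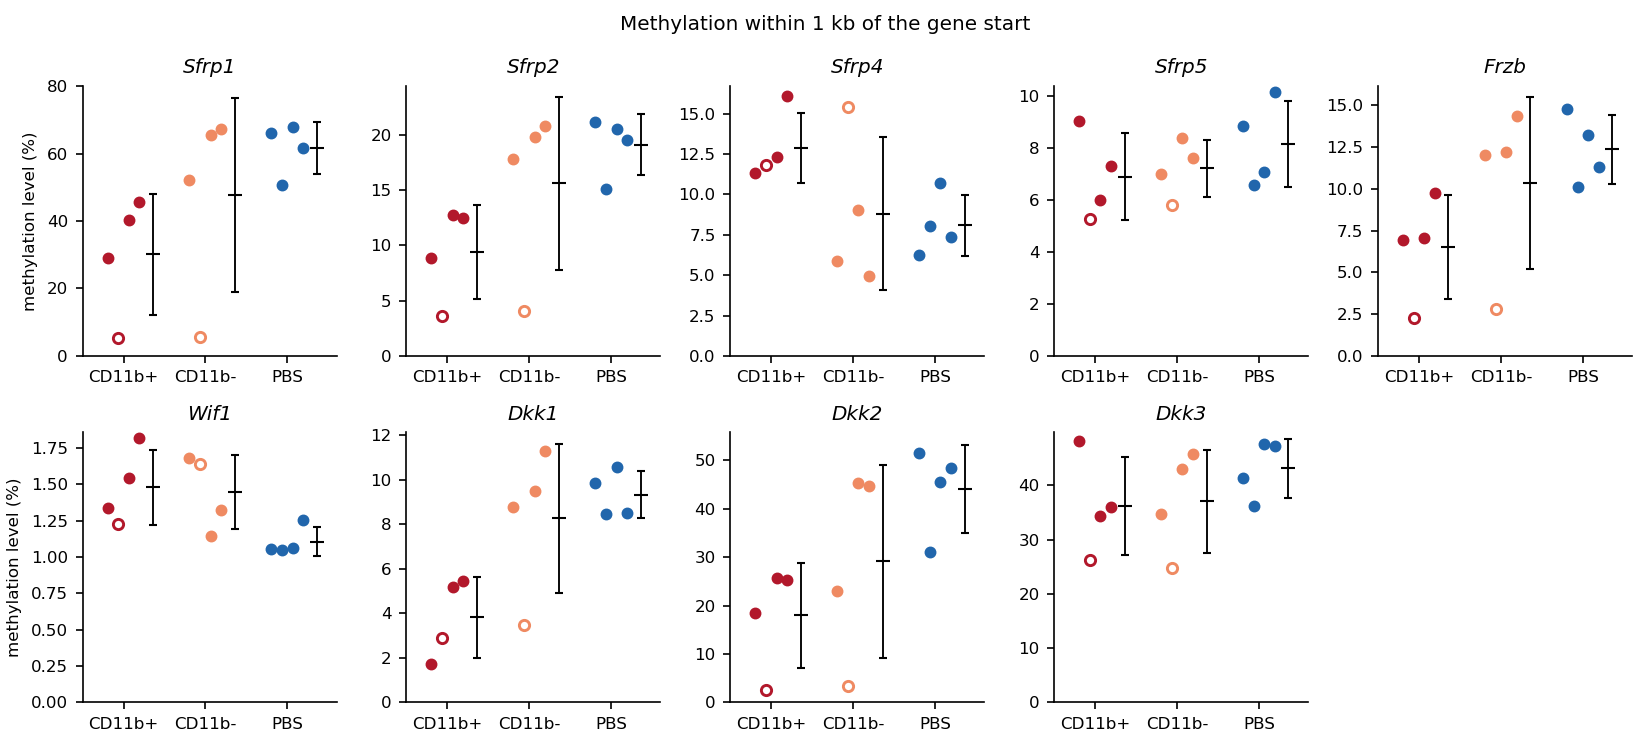
Methylation level within 1 kb of the gene start (%, y axis, a separate scale for each gene) in the CD11b-positive, CD11b-negative and PBS libraries of the 9 genes with a measured start. Points are libraries, open points the treated libraries numbered 2, and bars the mean ± SD of 4 libraries. At Sfrp1 and Dkk2 all CD11b-positive libraries lie below all PBS libraries, while Wif1 stays under 2% in each library.

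Sfrp1, which binds Wnt ligands through its Frizzled-like domain, had the largest loss at a gene start. Its start stood at 29.1, 5.37, 40.4 and 45.6% in the CD11b-positive, 52.2, 5.70, 65.6 and 67.3% in the CD11b-negative and 66.0, 50.8, 67.9 and 61.8% in the PBS libraries. All 4 CD11b-positive libraries lay below all 4 PBS libraries, both treated libraries numbered 2 were near 5%, and the other 3 CD11b-negative libraries lay within the PBS range. The means were 30.1 ± 17.9% in CD11b-positive and 61.6 ± 7.65% in PBS, a fall of 31.5 points (difference -31.5, adjusted p = 0.0370). The loss ran through the whole start: all 84 CpGs of the start had a lower mean in CD11b-positive than in PBS, 83 of them by at least 10 points. In CD11b-positive no CpG of the start had a mean over 50%, against 26 in CD11b-negative and 65 in PBS. In the rest of the region 14 of 24 CpGs were above the PBS mean, and a tile within the gene (chr8:23419001-23420000) was higher, at 68.4 ± 5.43% in CD11b-positive and 54.5 ± 1.88% in PBS (adjusted p = 0.00701). Over the whole region Sfrp1 averaged 37.5 ± 13.6% in CD11b-positive and 61.5 ± 6.18% in PBS (adjusted p = 0.00771).

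**Figure D2:**
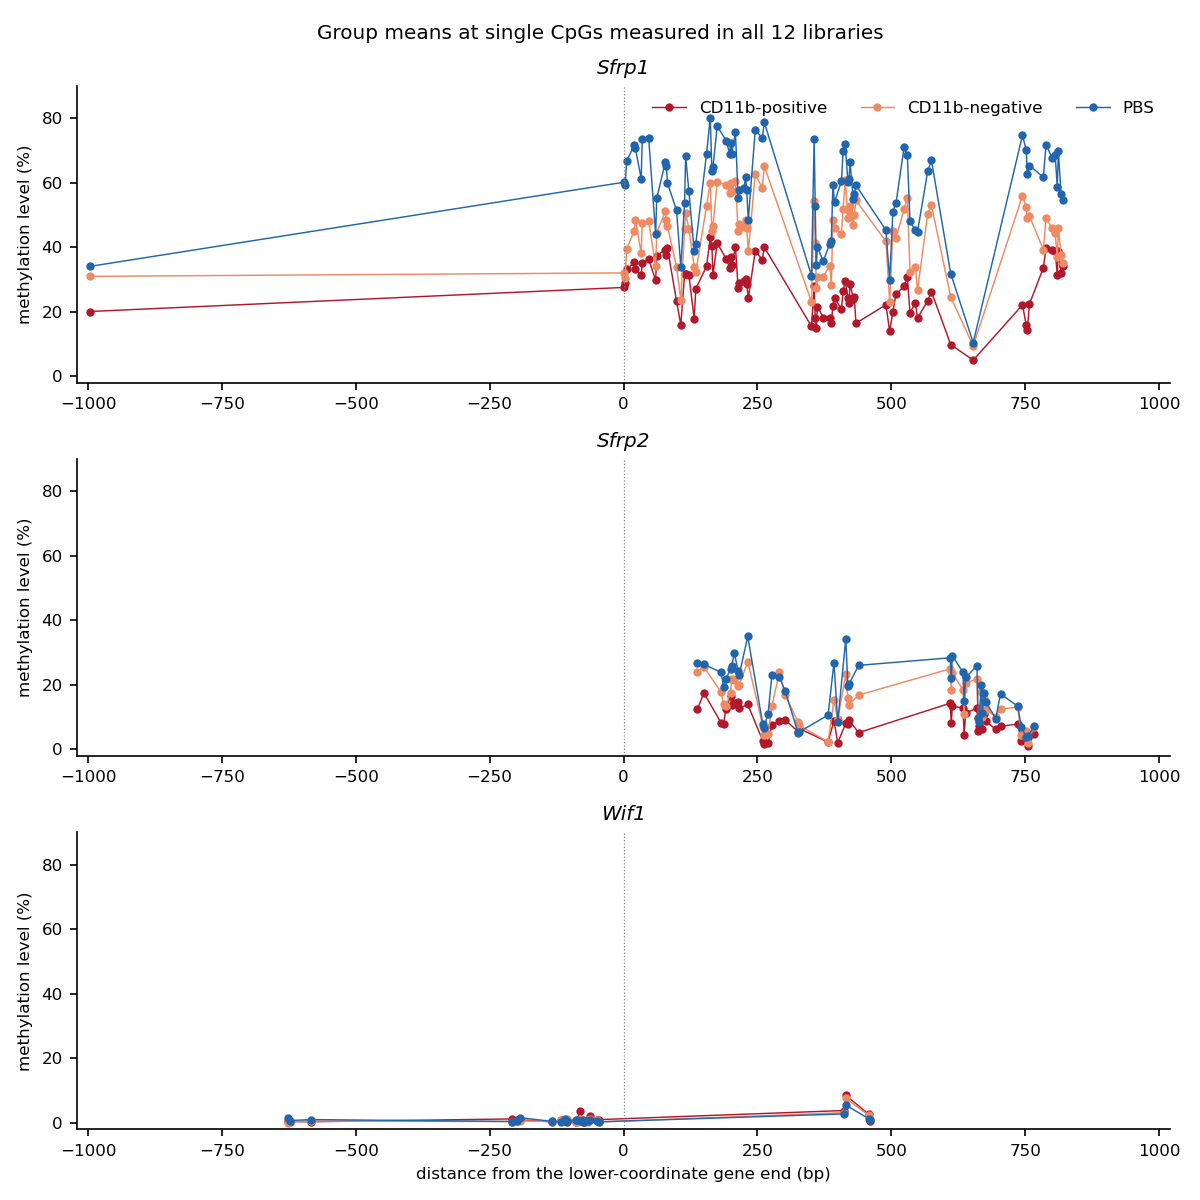
Group mean methylation (%, y axis) of each CpG measured in all 12 libraries, by its distance in bp from the lower-coordinate end of the gene (x axis, dotted line at 0), for Sfrp1, Sfrp2 and Wif1. Lines join neighbouring CpGs of CD11b-positive, CD11b-negative and PBS cells; at Sfrp1 the CD11b-positive means lie under the PBS means at all 84 CpGs, at Sfrp2 at 44 of 46, and at Wif1 all groups are near 0.

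Sfrp2, a close relative of Sfrp1, had a smaller loss at the start and a gain upstream of it. The start stood at 8.86, 3.57, 12.7 and 12.5% in the CD11b-positive libraries and 21.2, 15.1, 20.6 and 19.6% in the PBS libraries. The groups did not overlap, and the difference of -9.70 points (adjusted p = 0.0248) was just under the minimum of 10. Of its 46 CpGs, 44 were below the PBS mean in CD11b-positive, 22 by at least 10 points. The tile at the annotated lower end (chr3:83765001-83766000) was lower, at 13.2 ± 5.75% in CD11b-positive and 25.6 ± 4.11% in PBS (adjusted p = 0.0111). The tile 2750 bp outside that end (chr3:83762001-83763000) was higher, at 68.3 ± 9.59% in CD11b-positive and 51.7 ± 2.88% in PBS (adjusted p = 0.0126).

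Sfrp4, Sfrp5 and Frzb complete the group that binds Wnt ligands. At Sfrp4, which in other tissues is also linked to phosphate balance, the start stood at 12.9 ± 2.19% in CD11b-positive and 8.10 ± 1.89% in PBS, a difference of 4.79 points that did not pass the test over gene starts (adjusted p = 0.0566), although the 2 groups did not overlap. Sfrp5, known as an inhibitor of Wnt signalling in fat tissue and the foregut, had a start at 6.90 ± 1.66% and 8.16 ± 1.64% in the same groups. Away from the start it had 4 measured CpGs, and the tile that holds 3 of them, 4749 bp outside the gene on the side of the start (chr19:42207001-42208000), stood at 65.4, 88.9, 66.4 and 66.8% in the CD11b-positive, 45.6, 89.0, 47.6 and 42.5% in the CD11b-negative and 42.4, 54.0, 47.9 and 35.9% in the PBS libraries. The CD11b-positive and PBS libraries did not overlap there, and CD11b-negative 2 was again beside its CD11b-positive counterpart. The tile rose by 26.8 points (adjusted p = 0.00791), and with it the whole Sfrp5 region, at 37.1 ± 5.87% in CD11b-positive and 22.9 ± 0.923% in PBS (difference 14.2, adjusted p = 0.00508). The Sfrp5 region call rests on that flank, since the gene body alone differed by -1.26 points, and with each CpG weighted equally the difference was 8.08 points, under the minimum.

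Frzb, also called Sfrp3 and first known from cartilage, showed both directions at once. Its start was lower in CD11b-positive, at 6.51 ± 3.12% against 12.4 ± 2.07% in PBS, with all CD11b-positive libraries under all PBS libraries (difference -5.84 points, adjusted p = 0.0441, short of the minimum size), and 29 of its 30 CpGs were below the PBS mean. The 12 CpGs elsewhere in the region were all above the PBS mean, at 72.2% in CD11b-positive and 52.8% in PBS on average. The tile at the far end of the gene from the start (chr2:80413001-80414000) stood at 67.4, 89.6, 71.1 and 79.5% in CD11b-positive and 42.0, 62.9, 48.1 and 62.9% in PBS, without overlap, and rose by 22.9 points (adjusted p = 0.0141). Over the whole region these partly cancelled, with 32.1 ± 3.52% in CD11b-positive and 26.0 ± 2.21% in PBS (difference 6.08 points, adjusted p = 0.0487).

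Wif1, the inhibitor with its own Wnt-binding domain, kept an unmethylated start in every group. Its start stood at 1.48 ± 0.258% in CD11b-positive, 1.45 ± 0.257% in CD11b-negative and 1.11 ± 0.101% in PBS, and all 23 of its CpGs were under 20% in all 3 groups. Away from the start, all 16 CpGs were above the PBS mean in CD11b-positive, at 81.5% against 65.8% in PBS on average. Of its 4 tiles there, 3 rose. The tile 4004 bp upstream (chr10:121029001-121030000) stood at 78.1 ± 5.53% in CD11b-positive and 59.7 ± 3.99% in PBS (adjusted p = 0.00373). Of 2 tiles within the gene, one gained 17.9 points (adjusted p = 0.00524). The other gained 15.7 points (adjusted p = 0.0499), close to the threshold and with overlap of the libraries. The region as a whole, which mixes start and body, differed by 4.32 points (adjusted p = 0.107).

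**Figure D3:**
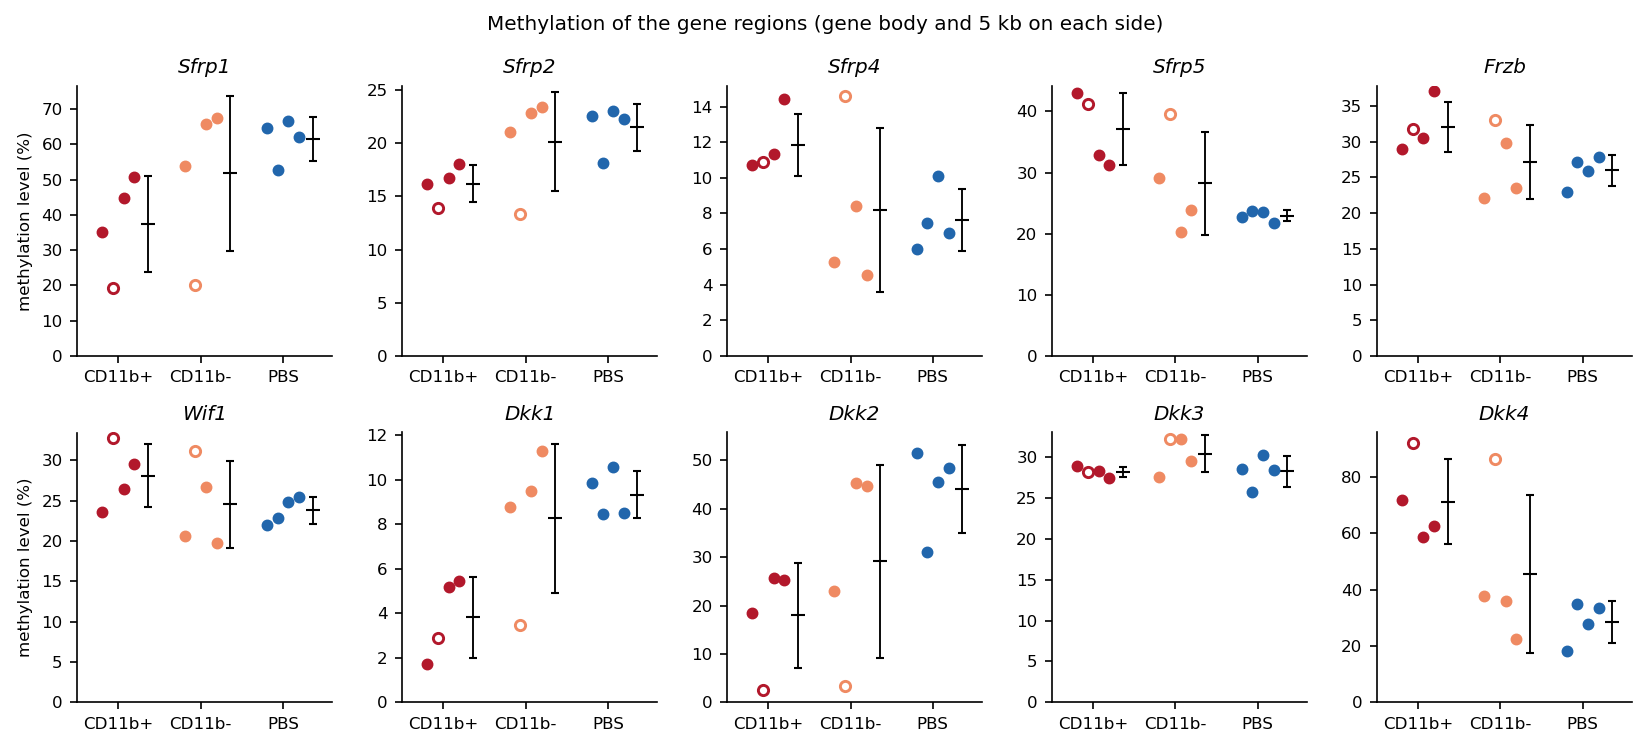
Methylation level over the gene body with 5 kb on each side (%, y axis, a separate scale for each gene) in the CD11b-positive, CD11b-negative and PBS libraries of all 10 genes. Points are libraries, open points the treated libraries numbered 2, and bars the mean ± SD of 4 libraries. The CD11b-positive libraries lie above the PBS ones at Dkk4 and Sfrp5 and below them at Sfrp1 and Dkk2, and the groups share one range at Dkk3.

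Among the inhibitors that bind the Lrp co-receptors, Dkk2 lost and Dkk4 gained methylation. Dkk2, which can act as an inhibitor or as a weak activator of the pathway depending on the cell, stood at 18.5, 2.5, 25.8 and 25.2% in the CD11b-positive, 23.1, 3.48, 45.4 and 44.6% in the CD11b-negative and 51.6, 31.0, 45.5 and 48.4% in the PBS libraries. As at Sfrp1, all CD11b-positive libraries were under all PBS libraries and both treated libraries numbered 2 were lowest. The means were 18.0 ± 10.8% in CD11b-positive and 44.1 ± 9.10% in PBS, and the level fell by 26.1 points (adjusted p = 0.00783 among regions and 0.0325 among starts, the same 9 CpGs in both). All 9 CpGs, which span 214 bp, were below the PBS mean.

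Dkk4, a Lrp-binding inhibitor that is itself a target of Wnt signalling in some tissues, was measured only at 9 CpGs within 258 bp, in a tile 2685 bp outside its lower-coordinate end (chr8:22620001-22621000), so its values describe a flank and not the gene itself. They stood at 71.8, 92.0, 58.7 and 62.5% in the CD11b-positive, 37.7, 86.2, 36.1 and 22.4% in the CD11b-negative and 18.2, 34.8, 27.7 and 33.6% in the PBS libraries. Every CD11b-positive library was above every PBS library, and CD11b-negative 2 was far above the other CD11b-negative libraries. The means were 71.2 ± 14.9% in CD11b-positive and 28.6 ± 7.56% in PBS, a rise of 42.7 points (adjusted p = 0.00270), and all 9 CpGs rose by at least 10 points in the group means.

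Dkk1, the best-known inhibitor of the Lrp co-receptors, and Dkk3, a divergent relative that is not known to act through them in the same way, gave no call. Dkk1 had little methylation in any group, 3.82 ± 1.80% in CD11b-positive, 8.27 ± 3.37% in CD11b-negative and 9.34 ± 1.04% in PBS. Its CD11b-positive and PBS libraries did not overlap and the difference of -5.52 points had an adjusted p of 0.0193 among starts, under the minimum size. Dkk3 stood at 28.2 ± 0.617% in CD11b-positive and 28.2 ± 1.88% in PBS over its region (difference -0.0481 points, adjusted p = 0.990). Of the 29 CpGs outside its start, 12 were above the PBS mean in CD11b-positive (8 by at least 10 points) and 17 below it (1 by at least 10). With each CpG weighted equally the region differed by 2.86 points, under the minimum (adjusted p = 0.0257 with limma). The tile chr7:112158001-112159000 stood at 6.17 ± 2.58% in CD11b-positive and 10.6 ± 2.26% in PBS, with overlap (adjusted p = 0.0343). The Dkk3 start, with 5 CpGs, was at 36.2 ± 9.05% and 43.1 ± 5.43% in the same groups, with overlap (adjusted p = 0.446).

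Among the called tiles, the direction went with position. Of the 29 tiles of 1000 bp with at least 3 shared CpGs, 13 were called between CD11b-positive and PBS, 8 higher and 5 lower, against 36.3% of all tiles (32.5% higher and 3.76% lower). The 5 lower tiles were the 3 at the Sfrp1 start, the tile at the annotated lower end of Sfrp2 and the tile at the Dkk2 start. The Sfrp2 tile that holds the printed window (chr3:83766001-83767000) differed by -6.91 points (adjusted p = 0.00835) and was not called for its size. The 8 higher tiles all lay away from a start, in the bodies of Sfrp1, Frzb and Wif1 or in flanks of Sfrp2, Sfrp5, Wif1 and Dkk4, with PBS levels between 28.6% and 69.1%. Tiles with PBS levels under 20% gave no call in either direction. Those under 10% could not be called lower, since a call needs at least 10 points. At an adjusted p under 0.05 and any size, 20 of the 29 tiles passed, 11 lower and 9 higher. Among the lower ones short of the size were both Dkk1 tiles (adjusted p = 0.0102 and 0.00191). The higher one short of it was at the Sfrp4 start (chr13:19623001-19624000), which rose by 4.79 points without overlap (adjusted p = 0.0171).

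**Figure D4:**
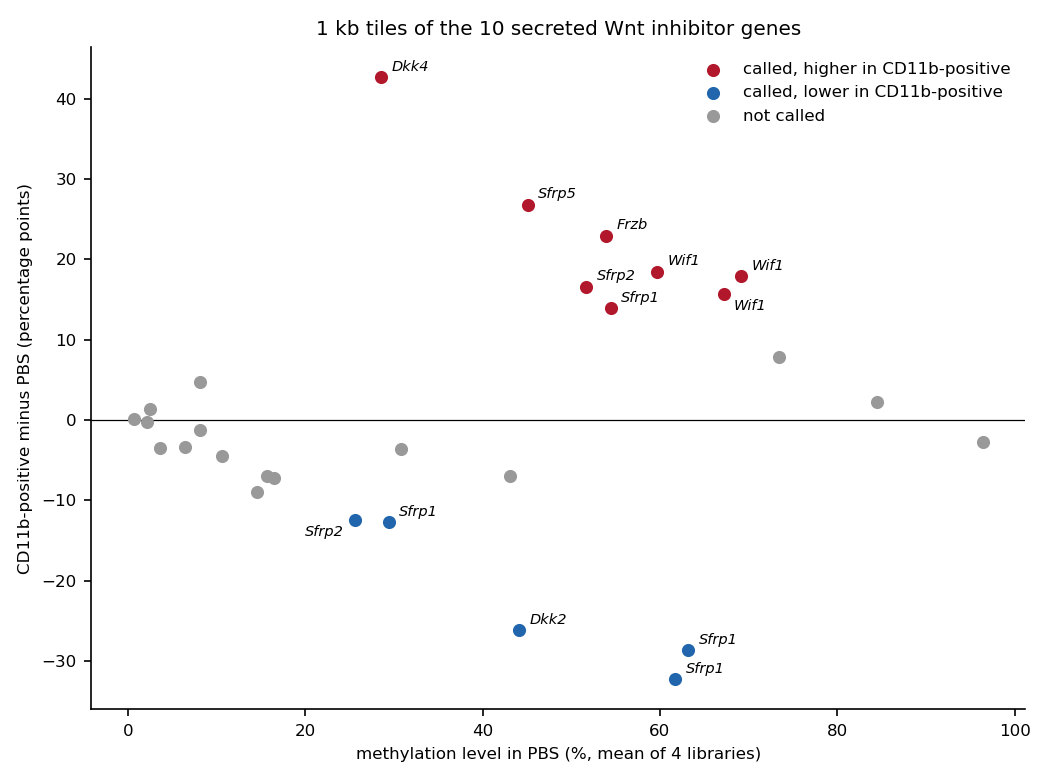
CD11b-positive minus PBS difference (percentage points, y axis) of the 29 tiles of 1 kb against their PBS level (%, mean of 4 libraries, x axis). Points are tiles, coloured by call and labelled by gene where called; the 8 higher tiles gain 13.9 to 42.7 points and the 5 lower tiles lose 12.4 to 32.2 points.

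The 4 region calls held in each of the 8 fits that left out 1 library, but in one fit of all 12 libraries the regions of Sfrp1 (adjusted p = 0.0565) and Dkk2 (0.0510) were not called. The 2 start calls were less firm: the adjusted p was 0.117 for Sfrp1 and 0.108 for Dkk2 in the fit of all 12 libraries, 0.108 and 0.109 with limma at equal CpG weights, 0.0866 and 0.0908 with edgeR, and 0.0980, 0.0955, 0.0857 and 0.0800 for Sfrp1 and 0.0930, 0.0864, 0.0816 and 0.0640 for Dkk2 without PBS 1, PBS 3, PBS 4 and CD11b-positive 1. With the Y share of each library as a further term no gene of the family was called in any stretch (Sfrp1 region -0.361, Dkk2 region 6.02, Sfrp5 region 10.3 and Dkk4 region 12.4 points), and with it 0 regions, 2 starts and 100 tiles were called in all. The Y shares of the CD11b-positive and PBS libraries do not overlap, so in this fit the share and the group cannot be told apart.

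Between CD11b-negative and PBS, no gene of the family was called. None of the 10 regions, 9 starts and 29 tiles passed, as did 0.0% of all regions, starts and tiles. At an unadjusted p under 0.05 there were 895 regions, 693 starts and 8632 tiles (5.17%, 5.23% and 9.92% of all), none in the family, and edgeR and limma likewise made 0 calls. The largest differences among regions and starts were wide in their spread. The Dkk4 flank stood at 45.6 ± 27.9% in CD11b-negative and 28.6 ± 7.56% in PBS (adjusted p = 0.751). In the same groups Dkk2 stood at 29.1% (3.48 to 45.4%) and 44.1% (31.0 to 51.6%) (adjusted p = 0.751), and the Sfrp1 start at 47.7 ± 28.8% and 61.6 ± 7.65% (adjusted p = 0.881). In each of these, CD11b-negative 2 was the library farthest from PBS, and without it the Sfrp1 start difference was 0.0916 points, against -13.9 with it. The Sfrp1 tile chr8:23412001-23413000 differed more, by -21.2 points (42.0 ± 30.3% and 63.2 ± 8.55%, adjusted p = 0.517). There CD11b-negative 1 (26.7%) also lay under the lowest PBS library (52.1%), and the difference was -31.0 to -9.61 points with single libraries left out. With all libraries, no stretch of the family was without overlap between the groups, against 5.84% of all regions, 4.53% of all starts and 10.6% of all tiles. Both treated groups were set against the same PBS libraries, so the 2 comparisons are not independent of each other.

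Between CD11b-positive and CD11b-negative, no gene of the family was called when the libraries were compared without regard to their numbers, and 0.0% of all regions, starts and tiles were. At an unadjusted p under 0.05 there were 3548 regions, 896 starts and 9460 tiles (20.5%, 6.76% and 10.9% of all), with Dkk1 the only family gene among regions and among starts and 3 family tiles, and edgeR and limma again made 0 calls. Same-numbered libraries of the 2 groups deviated together, however, as did some with unlike numbers. With the replicate number as a block the starts of Sfrp1 and Dkk2 were called, both lower in CD11b-positive, against 4.51% of all starts (3.56% lower). The labels do not give these pairs, and all results with the block rest on them. The Sfrp1 start averaged 30.1 ± 17.9% in CD11b-positive and 47.7 ± 28.8% in CD11b-negative (difference -17.6 points, adjusted p = 0.00222 with the block and 0.539 without it). Dkk2 averaged 18.0% in CD11b-positive and 29.1% in CD11b-negative (difference -11.1 points, adjusted p = 0.0146 with the block and 0.558 without it). In all 4 pairs both starts were lower in the CD11b-positive library, by less than 1 point in pair 2. In pairs 1, 3 and 4 they were lower by 23.1, 25.2 and 21.7 points at Sfrp1. At Dkk2 the same pairs were lower by 4.58, 19.6 and 19.4 points. Adding the Y share to the fit without the block changed the sign of both starts, and neither was called. Sfrp1 then differed by 14.3 points (adjusted p = 0.300) and Dkk2 by 12.2 points (adjusted p = 0.414). The Y shares of these groups overlap only through CD11b-negative 2, at 40.2 against 23.8 to 41.3 in CD11b-positive.

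With the block, 6 of the 29 tiles were also called, against 13.4% of all tiles (11.5% higher and 1.96% lower), while no region of the family was, against 0.606% of all regions. Higher in CD11b-positive were the Dkk4 flank by 25.6 points (adjusted p = 0.00156), the Sfrp5 flank by 15.7 (0.0239), the Frzb tile by 13.4 (0.0179) and the upstream Wif1 tile by 10.2 (0.0409). Lower were 1 tile at the Sfrp1 start (chr8:23411001-23412000) by 18.7 points (0.000193) and the Dkk2 tile (0.00250). The next Sfrp1 tile (chr8:23412001-23413000) was not called and differed by 15.3, 0.349, -32.0 and -13.2 points in pairs 1 to 4. With the Y share and no block no tile of the family was called. The named Sfrp1, Dkk2, Sfrp5 and Wif1 tiles then changed sign, to 13.8, 12.2, -3.97 and -1.05 points, and those of Dkk4 and Frzb did not. The Dkk4 flank was higher in the CD11b-positive library of each pair, by 5.80 points in pair 2 and by 34.1, 22.6 and 40.1 points in pairs 1, 3 and 4, whereas the Sfrp5 and Wif1 tiles of pair 2 were at 88.9 and 86.4% in CD11b-positive and 89.0 and 88.6% in CD11b-negative. Without CD11b-negative 2 and without the block, the Sfrp1, Dkk2, Dkk4 and Sfrp5 regions were called as they were against PBS, with differences of -24.9, -19.7, 39.2 and 12.6 points, against 19.1% of all regions. That fit kept CD11b-positive 2. Without both libraries numbered 2 and without the block, only the Sfrp1 (-18.9 points, adjusted p = 0.0274) and Dkk4 (32.3 points, adjusted p = 0.0135) regions of the family were called, and 2434 regions in all. With the block as well, all 4 were.

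**Figure D5:**
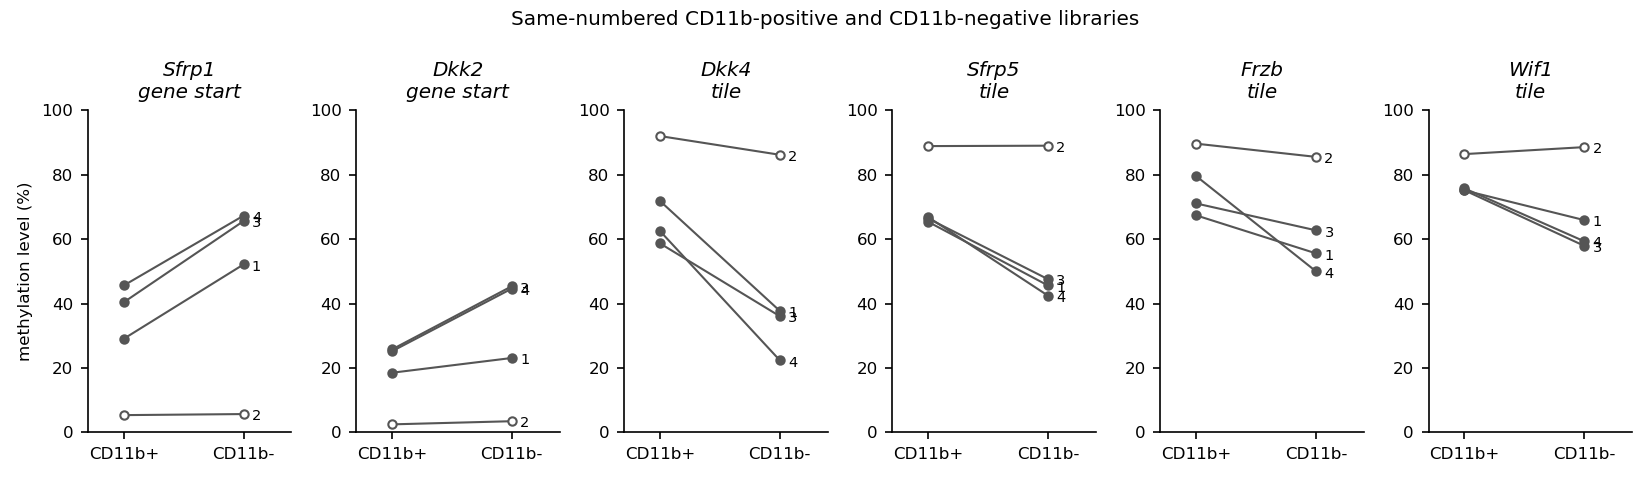
Methylation level (%, y axis) of same-numbered CD11b-positive and CD11b-negative libraries at 2 gene starts and at 4 tiles. Lines join libraries with the same replicate number, printed at the right, and open points are pair 2. Pairs 1, 3 and 4 run upwards to CD11b-negative at Sfrp1 and Dkk2 and downwards at the 4 tiles, while pair 2 is nearly level at Sfrp1, Dkk2, Sfrp5 and Wif1.

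The other genes of the pathway were read from 5 lists, for which the shares over all features are 18.1% higher and 3.52% lower for regions, and 4.61% higher and 4.67% lower for starts. Between CD11b-positive and PBS, 2 of 10 regions of other secreted antagonists and their receptors were called, both higher, of which Cer1, an antagonist of Wnt and Nodal in the embryo, gained most (84.0 ± 5.40% and 65.1 ± 3.79%). Among 18 ligand regions 1 was higher and 1 lower, Wnt8a (60.0 ± 6.43% and 47.2 ± 1.65%) and Wnt5a, a ligand of mainly beta-catenin-independent signalling (28.2 ± 7.44% and 42.1 ± 3.54%). Among 24 receptor and R-spondin regions 1 was higher and 2 lower, with Lgr6, an R-spondin receptor, the gain (67.0 ± 4.47% and 52.4 ± 1.46%) and the receptor Fzd10 the larger loss (30.2 ± 17.3% and 60.5 ± 7.81%). Among 19 intracellular regulators 2 were higher and 2 lower, of which the co-repressor Tle2 gained most (42.3 ± 4.93% and 27.9 ± 4.29%) and Dact2, which binds Dishevelled, lost most (37.7 ± 10.9% and 60.9 ± 7.04%). Of 15 genes of the beta-catenin and TCF list 2 were higher and none lower, with Tcf7l1 the larger (47.6 ± 3.33% and 34.9 ± 1.99%).

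At the starts of these lists 5 genes were called, each in the direction of its region. Cer1 and Sostdc1, an antagonist that binds Lrp6, were higher among 9 antagonist starts, Sostdc1 gaining most with 68.1 ± 12.3% in CD11b-positive and 47.2 ± 2.41% in PBS. None of 16 ligand starts and none of 13 starts of the beta-catenin and TCF list was called. Of 23 receptor starts 2 were lower, with Fzd10 at 32.5 ± 19.3% in CD11b-positive and 64.7 ± 8.48% in PBS, and of 17 intracellular starts 1 was, Dact2 at 27.1 ± 16.0% and 61.2 ± 10.8%. The median difference of the lists lay between -0.621 and 0.191 points at starts and between 1.66 and 3.48 points over regions, against 0.0624 points over all starts and 2.88 points over all regions. No member of these lists was called in the other comparisons without the block.

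The pattern of Sfrp1 over the 12 libraries was shared by many genes elsewhere. Of all gene starts more than 1000000 bp away, 12.8% had a Pearson correlation with the Sfrp1 start above 0.9, closest among them Hook1 and Pdzrn3 (0.999 each) and Gbx2 (0.997), and 10.7% had one with the Dkk2 start, closest Adgrl4 (0.990), Mrap2 (0.989) and Gm4924 (0.988). Among gene regions the closest to Sfrp1 were Tmem51, Hook1 and Spin2c, to Dkk2 Adgrl4, Pramel1 and Kcnk2, to Sfrp5 Pate10, Iqschfp and Tekt2, and to Dkk4 Htra4, Col16a1 and Ccn6, all at 0.986 or above. For Dkk4, 25.3% of all regions had a correlation above 0.9, for Sfrp5 11.8%, for Sfrp1 6.24% and for Dkk2 5.42%. These values describe 12 libraries whose groups and replicate numbers are shared by all genes, and without both treated libraries numbered 2 the correlations of the named genes stayed between 0.973 and 0.996 over 10 libraries.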

How the data were processed

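DNA of 12 libraries, 4 each of CD11b-positive, CD11b-negative and PBS cells, was measured by reduced representation bisulfite sequencing. The authors deposited counts of methylated and unmethylated calls per CpG cytosine, and the submitters' processing notes name the build mm10, methylKit 1.20.0, Bismark (with no version), cutadapt 2.7 and Trim Galore 0.6.4. The files list cytosines with at least 1 call and keep no molecular identifiers, so repeated copies of a molecule can be counted. Strands were summed, CpGs with under 10 calls in any library were left out, and tiles, gene starts and regions needed 3 CpGs. Gene ends and promoter windows came from RefSeq GRCm38.p6, the build of mm10. The windows give the strand for 17274 of 21631 protein-coding genes. Exons and introns were not used.

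Methylated against unmethylated counts entered a quasi-binomial logistic regression, with an F test, in Python 3.11.15 (numpy 2.4.6, scipy 1.17.1), on the 8 libraries of the 2 groups. The dispersion was moderated by the empirical Bayes method of limma in bins of mean methylation bounded at 5, 20, 80 and 95%, with a floor of 1, and checked on simulated data. Alternatives used edgeR 4.0.16 and limma 3.58.1 in R 4.3.3, a replicate block, other filters and each library left out. The members, lists and tests were chosen with earlier results of these data known. All 10 members, the tile with the largest difference in each, the largest called gain and loss of each other list and the 3 genes closest to each called member were named.

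Same-numbered CD11b-positive and CD11b-negative libraries deviated together from their group means (correlations 0.245, 0.908, 0.598 and 0.664 over gene regions, 0.238, 0.962, 0.780 and 0.823 over gene starts), so they were taken as pairs, since each was over 0.1. Unlike numbers could pass this limit too, such as CD11b-positive 1 with CD11b-negative 4 (0.231 over regions). Deviations are taken from the group mean, so a far library 2 in both groups shifts the others alike, whatever their numbers. The pairing is a hint from the data, since the labels give only the number, and it is clear only for number 2. Over regions CD11b-positive 3 correlated more with CD11b-negative 4 (0.703), and CD11b-positive 4 with CD11b-negative 3 (0.771). The same held over starts (0.787 and 0.843). There CD11b-positive 1 also correlated more with CD11b-negative 3 (0.285) and 4 (0.310) than with CD11b-negative 1. Against PBS, numbers 1 to 3 correlated at 0.218, 0.727 and 0.212 for CD11b-positive and 0.480, 0.746 and 0.547 for CD11b-negative over regions, but number 4 did not (-0.0978 and -0.187), so no pairing was used there.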

Additional observations from a re-analysis of the deposited data

Results flagged for a closer look

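Of 60 groups of 4 libraries examined, 5 held a library far from the other 3 by Dixon's criterion, which chance alone gives in about 1 of 20 groups. PBS 2 had 18.2% over the Sfrp2 region, against 22.2 to 23.0% in the other PBS libraries. CD11b-positive 4 had 14.4% over the Sfrp4 region, against 10.7 to 11.4% in the other CD11b-positive libraries. PBS 4 had 1.26% at the Wif1 start, against 1.05 to 1.06% in the other PBS libraries. Calls over Y-linked genes stood at 41.3 per 1000000 autosomal calls in CD11b-positive 2, against 23.8 to 25.0 in the other CD11b-positive libraries, and at 40.2 in CD11b-negative 2, against 8.64 to 12.9 in the other CD11b-negative libraries.

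The calls over Y-linked genes lie outside the CpGs compared in the report. Their mean was 28.5 per 1000000 autosomal calls in CD11b-positive, 18.2 in CD11b-negative and 10.9 in PBS, the last with a highest library at 18.6. The 2 libraries with the highest share are also those with the lowest levels at the Sfrp1 and Dkk2 starts. PBS 2, with the highest Y share of the PBS libraries (18.6), likewise had their lowest levels at the Sfrp1 (50.8%) and Dkk2 (31.0%) starts and their highest at the Dkk4 flank (34.8%). Tests were not made on this order of libraries within groups. Between CD11b-positive and PBS the Y shares do not overlap, so there their part in these levels cannot be told apart from the group.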

How the results depend on the processing

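Of the alternative values computed for single members, 1360 of 1442 stayed on their side of the threshold, 51 gained a call, 24 lost one in the same direction and 7 called values lost the call and reversed. Of the 1360, 61 changed sign, none of them called, 31 with the Y share term and 12 without CD11b-negative 2. For CD11b-positive minus PBS (3742 regions, 1230 starts and 31547 tiles called, with 4, 2 and 13 in the family), the Y share as a further term left 0 regions, 2 starts and 100 tiles, with 0 in the family. It reversed Dkk2 to 6.02 points in its region, start and tile, the Sfrp1 start to 3.96, the Sfrp1 tile to 3.35 and the Frzb tile to -0.923, and it gave 1 start and 98 tiles for CD11b-negative minus PBS and 99 tiles for CD11b-positive minus CD11b-negative. Without a minimum difference 8666 regions, 3147 starts and 51924 tiles were called, with 7, 5 and 20 in the family. One fit of all 12 libraries called 23 starts, with 2 regions and 0 starts of the family, and 11 tiles for CD11b-positive minus CD11b-negative. limma with equal weights called 303 starts and edgeR 532, each with 0 in the family. Gene bodies without flanks left 2 family regions and reversed Sfrp5 to -1.26, and tiles of at least 5 CpGs left 15025 calls among fewer tiles.

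For CD11b-positive minus CD11b-negative, 0 without the block, the replicate block called 105 regions, 598 starts and 11704 tiles, with 0, 2 and 6 in the family. Without both treated libraries numbered 2, an alternative chosen after seeing the data, 2434 regions, 724 starts and 17707 tiles were called, with 2, 1 and 6 in the family, and with the block as well 1939, 960 and 18584, with 4, 2 and 7. Against PBS, where the numbers were not taken as pairs, the block gave 3653 regions, 1064 starts and 30724 tiles for CD11b-positive, with 4, 2 and 12 in the family, and 0 of each for CD11b-negative. It changed no other call of a member's region, start or named tile.

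Leaving out each library in turn gave, for CD11b-positive minus PBS, 2914 to 3990 regions, 160 to 1188 starts and 27198 to 32091 tiles, with 4 to 4, 0 to 3 and 10 to 14 in the family. The start count was lowest, at 160, without PBS 1, and was 224 without PBS 3, 201 without PBS 4 and 472 without CD11b-positive 1. It gave 0 to 1 regions, 0 starts and 0 to 3 tiles for CD11b-negative minus PBS. It gave 0 to 3310 regions, 0 to 122 starts and 0 to 17774 tiles for CD11b-positive minus CD11b-negative, with 0 to 4, 0 and 0 to 7 in the family, the highest of each without CD11b-negative 2. Except where named, the cause was not tested. Depth was lowest at Dkk4 among regions (661 calls in a library) and at Dkk3 among starts (286), and some tiles rested on fewer, down to 44 at Sfrp1.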
